A study of Mus musculus with 2 samples.

Results

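Liver CpG methylation was examined in the gene-dense windows of the mouse genome, in Uhrf1 knock-in (KI) and wild-type (WT) males. A window was 1 Mb of an autosome in the mouse build mm9. It counted as gene-dense where at least 30 protein-coding genes other than the odorant (Olfr) and vomeronasal (Vmn) receptor genes had their 5′ end in it, and where both libraries shared at least 100 CpG cytosines read 5 or more times in each. There were 93 such windows among the 2411 autosomal windows with at least 100 shared cytosines. The members described here were the 146603 shared cytosines of these 93 windows that lay more than 1 kb from every annotated transcript start, out of 2654195 shared cytosines in the series. The windows lay on 17 autosomes and held 3707 of the 19985 autosomal protein-coding genes counted by the same rule. The rule used gene positions and read coverage, and no methylation value.

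The KI mice carried, on both alleles, a Uhrf1 gene in which a neighbouring tyrosine and proline of the tandem Tudor domain were replaced by alanines. The WT mice were littermates with the unchanged gene, and all animals were 3-month-old males labelled C57BL/6. The allele had been made in embryonic stem cells of 129/SV origin and bred to a C57BL background, and for each genotype the liver DNA of 3 mice was pooled into 1 library. The genotype field of the KI sample reads knock out, while its title reads KI. With 1 library per genotype every test below compares 2 libraries, without a replicate check, and the intervals cover counting error only. They are too narrow for a comparison of genotypes, since 1 read spans several CpGs and PCR copies are not separate molecules. DNA from whole liver was used, so that a change in the share of a cell type and a change of methylation within a cell type cannot be told apart.

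UHRF1 brings the maintenance methyltransferase DNMT1 to newly copied DNA. Its SRA domain reads hemimethylated CpG, and its tandem Tudor and PHD domains read histone H3 with methylated lysine 9, a mark of silent chromatin. In mammalian genomes, gene-rich segments are GC-rich, replicate early and carry little of this mark, while the bodies of their genes are usually highly methylated.

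Reduced representation bisulfite sequencing (RRBS) reads the CpGs near CCGG sites, the sites of the enzyme MspI, and gives for each cytosine the percentage of reads in which it was methylated. Summed over cytosines, coverage was 173109895 in the KI library and 192144002 in the WT library, and the median shared cytosine had 37 reads in each. The member cytosines had a median of 42 reads in the KI library and 43 in the WT library. The percentages do not show the replaced residues, so the genotype labels were not checked. Of 15 promoters of hepatocyte genes, 6 were measured, none of them in a gene-dense window, and they had a median of 27.6% in KI and 36.7% in WT. By the tests used for gene bodies 4 of them were lower in KI, with changes of -4.76 at F2, -11.5 at Hnf4a, -12.5 at Apob and -13.6 at Fgb. Over all autosomes 6.4% of 13456 promoters were lower by these tests. Measured for other liver cell types were 3 promoters of blood and Kupffer cells, 2 of endothelium, 5 of stellate cells and 2 of cholangiocytes. Of these 1 was lower, that of Cd3e. The part of cell types in the results was not tested. The Uhrf1 gene lies in a gene-dense window itself. Over the 62 cytosines of its body the mean was 73.6% in KI and 76.3% in WT, a change of -2.75 ± 1.15 percentage points (counting error) that did not pass both tests (Fisher's exact adjusted p = 0.840).

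Stretches of the genome are shown first, with every CpG in capitals, because they are what the percentages refer to. They are given 5′ to 3′ on the plus strand of mm9. The first set holds the 3 stretches of 1 kb with the largest losses in KI by the rule for named stretches, the stretch with the largest gain and a highly methylated stretch that kept its level.
Ptprh intron, loss, chr7:4546368-4546482: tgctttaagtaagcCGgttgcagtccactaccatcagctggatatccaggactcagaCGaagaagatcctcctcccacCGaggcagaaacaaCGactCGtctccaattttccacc
Hdgfrp2 exon, loss, chr17:56238642-56238780: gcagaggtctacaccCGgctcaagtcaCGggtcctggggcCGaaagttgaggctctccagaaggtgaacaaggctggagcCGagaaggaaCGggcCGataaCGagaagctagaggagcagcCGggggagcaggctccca
near Krt80, loss, chr15:101210090-101210356: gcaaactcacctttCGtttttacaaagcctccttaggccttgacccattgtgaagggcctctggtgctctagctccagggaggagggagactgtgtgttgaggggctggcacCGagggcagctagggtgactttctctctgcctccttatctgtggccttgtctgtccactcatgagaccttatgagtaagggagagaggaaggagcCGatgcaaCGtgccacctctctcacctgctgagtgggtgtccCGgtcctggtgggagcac
Gm10874 intron, gain, chr5:138815344-138815465: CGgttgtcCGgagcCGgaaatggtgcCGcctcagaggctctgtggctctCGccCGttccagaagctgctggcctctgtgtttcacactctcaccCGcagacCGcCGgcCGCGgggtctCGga
Plec exon, kept, chr15:76005613-76005873: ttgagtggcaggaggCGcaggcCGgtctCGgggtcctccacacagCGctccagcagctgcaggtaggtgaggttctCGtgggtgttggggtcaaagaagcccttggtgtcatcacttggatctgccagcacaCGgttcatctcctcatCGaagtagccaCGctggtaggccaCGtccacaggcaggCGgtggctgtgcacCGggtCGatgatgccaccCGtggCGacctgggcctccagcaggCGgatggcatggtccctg

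The losses and the gain of the first set rest on few reads. In the Ptprh sequence the 5 shared cytosines averaged 30% in KI and 77.8% in WT, on 5 or 6 reads in KI and 9 in WT. In the Hdgfrp2 sequence 15 of 16 cytosines were lower in KI, with 4 of them past an adjusted p of 0.05, and the mean was 37.1% in KI and 78.6% in WT. Its plus-strand cytosines had 45 reads in KI and 29 in WT, and its minus-strand cytosines 5 in KI and 8 in WT. The 4 that passed were all on the minus strand, each at 0% in KI and 100% in WT. They can therefore rest on the same 5 KI reads, and no plus-strand cytosine passed. Summed over all reads the change of that stretch was -23.2 percentage points rather than the -41.5 of the mean over cytosines, and over its 8 cytosines with 10 or more reads the mean change was -14.2. The sequence near Krt80 averaged 51.7% in KI and 84.0% in WT over 5 cytosines, on 8 or 9 reads in KI and 5 in WT. The Gm10874 sequence had 6 reads at each cytosine in both libraries, with means of 76.2% in KI and 38.1% in WT, and none of its 7 cytosines passed alone. The Plec sequence had 16 to 171 reads per cytosine in KI and 20 to 177 in WT. It averaged 90.8% in KI and 89.6% in WT over 30 cytosines.

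A second set was chosen after the first was seen, as the 3 largest losses over cytosines with at least 20 reads in both libraries.
Meox1 exon, loss, chr11:101740376-101740634: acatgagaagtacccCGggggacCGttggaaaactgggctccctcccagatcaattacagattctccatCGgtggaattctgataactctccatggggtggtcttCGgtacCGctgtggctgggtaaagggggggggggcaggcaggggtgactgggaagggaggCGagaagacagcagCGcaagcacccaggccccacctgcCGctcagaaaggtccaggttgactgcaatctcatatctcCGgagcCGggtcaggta
between genes, loss, chr10:126128556-126128777: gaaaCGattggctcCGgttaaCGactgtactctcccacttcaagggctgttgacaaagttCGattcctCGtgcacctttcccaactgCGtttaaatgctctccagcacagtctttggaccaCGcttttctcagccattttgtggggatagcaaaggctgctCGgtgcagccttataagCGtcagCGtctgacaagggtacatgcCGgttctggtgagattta
near Slpi, loss, chr2:164176561-164176806: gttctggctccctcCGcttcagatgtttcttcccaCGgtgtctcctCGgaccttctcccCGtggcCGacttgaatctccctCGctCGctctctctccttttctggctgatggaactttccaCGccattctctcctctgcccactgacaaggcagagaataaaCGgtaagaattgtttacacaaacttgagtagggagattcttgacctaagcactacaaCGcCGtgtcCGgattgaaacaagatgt

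In the 3 printed sequences the losses were spread over most CpGs, and the KI means were 18.8% or more. The shared cytosines were all on the plus strand at Meox1 and all on the minus strand in the chr10 and chr2 sequences. Within each sequence their read counts were nearly equal. The cytosines of a sequence can therefore rest on the same reads, and their counts are not independent. Meox1 encodes a homeobox factor of somite development. Its printed sequence averaged 23.5% in KI and 58.0% in WT, with 30 to 32 reads per cytosine in KI and 40 to 43 in WT, and 8 of 9 cytosines were lower, 6 of them past an adjusted p of 0.05. The chr10 sequence averaged 18.8% in KI and 47.8% in WT, with 9 of 10 cytosines lower. The chr2 sequence, 3000 bases from Slpi, a secreted protease inhibitor gene, averaged 40.8% in KI and 68.4% in WT, and 9 of 9 cytosines were lower. In the 2 next largest losses of this search, an exon stretch of Ltbp4 (chr7:28110001-28111000), a gene for a TGF-beta binding protein of the matrix, had 5.30% in KI and 30.02% in WT, and a stretch over an untranslated region of Dcxr (chr11:120586001-120587000), which encodes a xylulose reductase, had 23.2% in KI and 46.3% in WT.

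Methylation was lower in the KI library in the gene-dense windows, but by less than in the rest of the autosomes. The member cytosines averaged 53.8% in KI and 56.2% in WT, a change of -2.41 percentage points (95% interval -2.45 to -2.36). This was a reduction by 4.28% of the WT level. In the other 2318 autosomal windows the 1576865 cytosines far from starts averaged 57.1% in KI and 61.2% in WT, a change of -4.14, or 6.76% of the WT level. The gap between the 2 changes was 1.74 percentage points (95% interval 1.69 to 1.78). In CCGG sites, which held 34.4% of the members and 40.8% of the other cytosines, the gap was 0.939. WT averaged 39.6% there in gene-dense windows and 43.3% in the others. Outside CCGG sites the gap was 2.41, with WT at 64.9 and 73.6%. Of the member cytosines 51.5% were lower in KI, 33.3% higher and 15.2% equal, against 58.7, 28.9 and 12.4% in the other windows.

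The change grew as gene count decreased. It was -2.41 percentage points with 30 or more gene 5′ ends, -3.23 with 10 to 29, -4.50 with 1 to 9 and -7.03 in the 265 windows with no gene 5′ end, where 10.5% of the WT level was lost. At the threshold of the rule, the 19 windows with 30 to 32 gene 5′ ends had a change of -2.37 and the 28 windows with 27 to 29 had -3.13. Within the gene-dense windows the steps were small, with -2.47 for 30 to 39 gene 5′ ends, -2.38 for 40 to 49 and -2.26 for 50 or more. Across the 93 windows gene count and change had a Pearson correlation of 0.015, given as a description of windows that share both libraries.

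**Figure D1:**
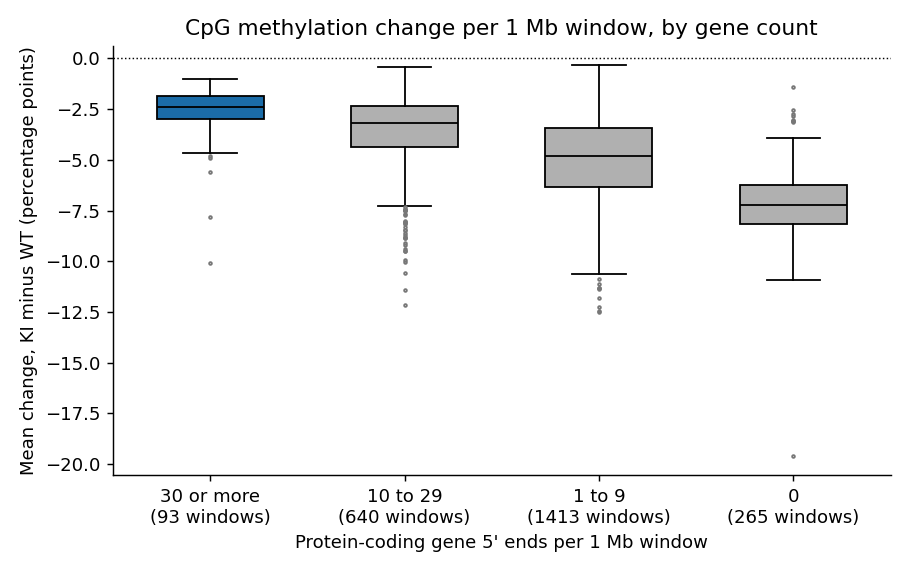
Mean change per 1 Mb window, KI minus WT in percentage points, by the number of protein-coding gene 5′ ends in the window. Boxes span the middle quartiles with the median as a line, whiskers reach 1.5 box lengths and points are windows beyond them. The 93 gene-dense windows have a median of -2.41 and the 265 windows without a gene 5′ end a median of -7.24.

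A loss in percentage points depends on the level there is to lose, and gene-dense cytosines started lower. In WT 52.3% of them were above 70% methylated and 30.7% below 20%, against 59.5% and 26.8% in the other windows. The WT reads were therefore split at random into 2 sets, one to place a cytosine in a bin of 10 percentage points and the other to measure its change. At like WT level the gap was 1.57 percentage points (95% interval 1.52 to 1.63). Gene-dense cytosines changed less in each of the 11 bins. The gap was widest from 60 to under 70%, where the change was -4.31 in gene-dense windows and -7.83 in the other windows, and narrowest below 10%, where it was -0.027 and -0.233.

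**Figure D2:**
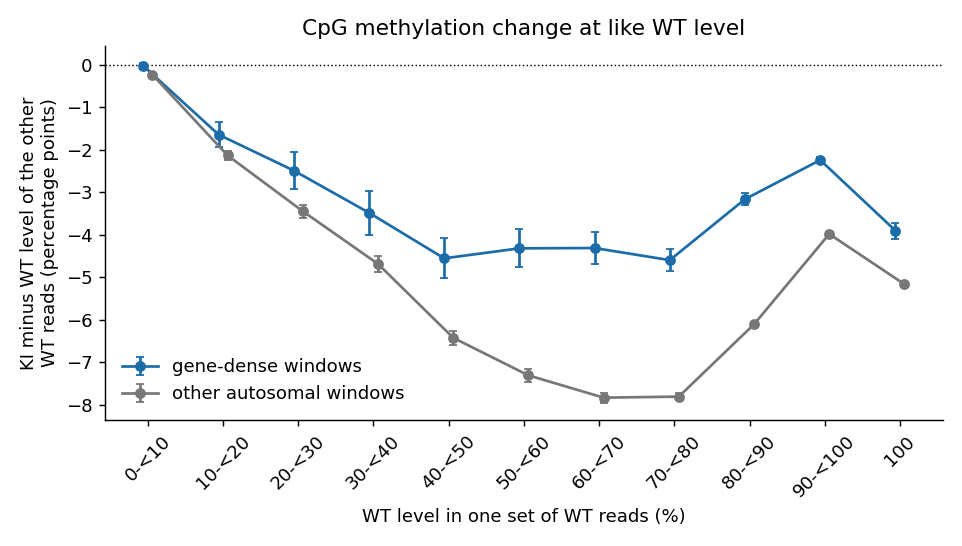
Change in percentage points (KI minus WT) against the WT level in percent, gene-dense windows in blue and other autosomal windows in grey. One set of WT reads gives the bin and the other the change. Points are means and bars the 95% counting interval. From 40 to under 80% the blue points stay between -4.60 and -4.31 while the grey ones reach -7.83.

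The gene-dense cytosines also differed in where they lay. Of the members 36.4% were in exons, 34.2% in introns and 29.5% between genes, against 11.3, 35.8 and 53.0% of the cytosines in the other windows. In exons the change was -2.02 percentage points in gene-dense windows and -2.28 in the others, a gap of 0.253 (95% interval 0.169 to 0.338). In introns it was -2.09 and -3.23, a gap of 1.13. Between genes it was -3.24 and -5.16, a gap of 1.92. Thus the exons of both kinds of window lay close together, and the intergenic CpGs lay furthest apart.

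The change increased with distance from the nearest transcript start. In gene-dense windows it was -1.79 percentage points at 1 to 2 kb, -2.16 at 2 to 5 kb, -2.66 at 5 to 10 kb, -2.94 at 10 to 50 kb and -3.92 over 50 kb, the last over 1478 cytosines. In the other windows it was -1.97, -2.79, -3.36, -4.08 and -5.61 in the same order. Of the members 1.01% lay over 50 kb from a start, against 29.4% in the other windows. At 1 to 2 kb the gap was 0.178 (95% interval 0.063 to 0.293). Within 1 kb of a start, outside the members, the change was -0.543 in gene-dense windows and -0.601 in the others, and over all shared cytosines of the gene-dense windows it was -1.47.

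**Figure D3:**
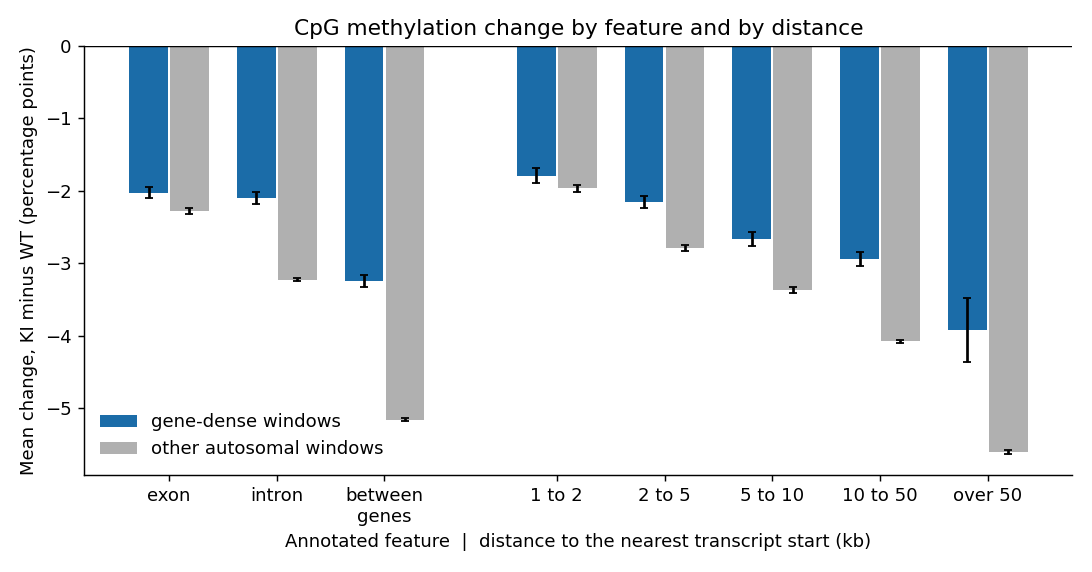
Mean change in percentage points (KI minus WT) by annotated feature and by distance to the nearest transcript start in kb, gene-dense windows in blue and other autosomal windows in grey, with 95% counting intervals. In percentage points the bars differ least in exons and at 1 to 2 kb, and most between genes. At 1 to 2 kb the WT level was higher in gene-dense windows, and the losses were 3.50 and 4.55% of it.

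Repeated sequence was counted from the genome itself. For each cytosine the median number of copies of the 16-base words around it was taken, and 5 or more copies were read as repeated. Of the members 86.7% had under 5 copies, against 65.9% in the other windows. Cytosines with under 5 copies changed by -2.16 in gene-dense windows and by -3.27 in the others, a gap of 1.10 (95% interval 1.05 to 1.15). With 1000 or more copies the changes were -4.21 and -5.61. When the other windows were weighted to the level and the copies of the members the gap was 1.13, with level and feature it was 0.861, with level and distance it was 0.738, and with level, copies, feature and CpG density together it was 0.727 (95% interval 0.667 to 0.787). These traits overlap, and the part of each in the gap was not tested.

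The gap had the same sign throughout the genome. On all 17 autosomes with gene-dense windows the gene-dense cytosines lost fewer percentage points and a smaller share of their WT level than the other windows of the same chromosome, with an interval above 0 on each. It was smallest on chromosome 2, at 0.646 percentage points over 6936 member cytosines, and largest on chromosome 1, at 2.47 over 2890. The members of chromosome 1 lay in 2 windows and averaged 43.0% in WT, against 62.0% in its other windows. They lost 4.57% of the WT level, against 7.16%. Chromosome 7, which holds 14 of the windows, had a change of -2.50 in gene-dense windows and -4.90 in the others. These were losses of 4.37 and 8.08% of the WT level.

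Single cytosines were tested with Fisher's exact test, adjusted over all shared cytosines of the series. A call needed an adjusted p below 0.05 together with more than 25 percentage points between the libraries. Among the members 990 were lower in KI (0.675%) and 98 higher (0.0668%). Over all shared cytosines 1.09% were lower and 0.0474% higher, and over the comparable cytosines of the other windows 1.53% were lower and 0.0569% higher. Of the 76720 members above 70% in WT, 112 were below 20% in KI, and of the 45014 below 20% in WT, 37 were above 70% in KI. In the other windows these were 1522 of 938199 and 383 of 423059.

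All 93 gene-dense windows had a lower mean in KI, as did 100% of the 2411 autosomal windows, so that the count is the same as the background. Their changes had a median of -2.41 percentage points and an SD of 1.33 between windows, with a range of -10.1 to -1.03. The other windows had a median of -4.59 and an SD of 2.16.

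The largest falls were in windows built of tandem gene families. The α-defensin window (chr8:22000001-23000000), which holds Defa genes for antimicrobial peptides of Paneth cells and some Defb genes, had 53.7% in KI and 63.8% in WT, a change of -10.1 ± 0.430 (counting error), or of -15.7 without CpGs in CCGG sites. It lost 15.8% of its WT level, and 95.8% of its 289 cytosines lay in repeated words. Their median depth was 107 reads in KI and 98 in WT, against 42 and 43 for all members. The epidermal window on chromosome 3 (chr3:92000001-93000000), with the Sprr and Lce genes of the cornified envelope and Ivl, had 55.7% in KI and 63.6% in WT. A zinc finger cluster (chr13:67000001-68000000), with Zfp456, Zfp457 and Rsl1, a repressor of sex-limited liver genes, had 63.7% in KI and 69.3% in WT. The part of the MHC with the nonclassical class I genes H2-T and H2-M (chr17:36000001-37000000) had 62.2% in KI and 67.1% in WT. The type II keratin cluster (chr15:101000001-102000000) had 47.3% in KI and 52.1% in WT, and it differed from the preceding windows in that 7.18% of its 1865 cytosines were repeated, against 64.5 to 95.8%.

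The smallest falls were in windows of mixed genes. The window from Tns1 to Ihh (chr1:74000001-75000000), which has the actin regulator Arpc2 and the bile acid receptor Gpbar1, had 35.9% in KI and 36.9% in WT. The window with Nfix, Calr, Junb and Klf1 (chr8:87000001-88000000) had 47.8% in KI and 48.8% in WT. The window with Plec, Hsf1 and Dgat1 (chr15:76000001-77000000) had 62.7% in KI and 63.9% in WT. The window with Maz, Taok2, Mvp and several zinc finger genes (chr7:134000001-135000000) had 58.5% in KI and 59.6% in WT, or 1.92% of its WT level.

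The windows with the most genes did not move together. The window with 79 gene 5′ ends, a cluster of type I keratin and keratin-associated protein genes (chr11:99000001-100000000), had 61.9% in KI and 66.3% in WT, the eighth largest fall of the 93. The window with 69 (chr7:52000001-53000000), with Bax, Irf3, Prmt1, Gys1 and Ftl1, had 57.4% in KI and 58.7% in WT and is among the 5 smallest falls. A window of the MHC (chr17:35000001-36000000, 68 gene 5′ ends) had 56.2% in KI and 58.8% in WT. It holds class III genes such as Tnf, C2, Hspa1a and Ehmt2, an H3K9 methyltransferase gene, and class I genes such as H2-D1 and H2-Q7. The neighbouring windows on chromosome 10 with 60 and 59 gene 5′ ends, which include Gpx4, Stk11, Cirbp, Dot1l and Eef2, had changes of -1.99 and -1.88.

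**Figure D4:**
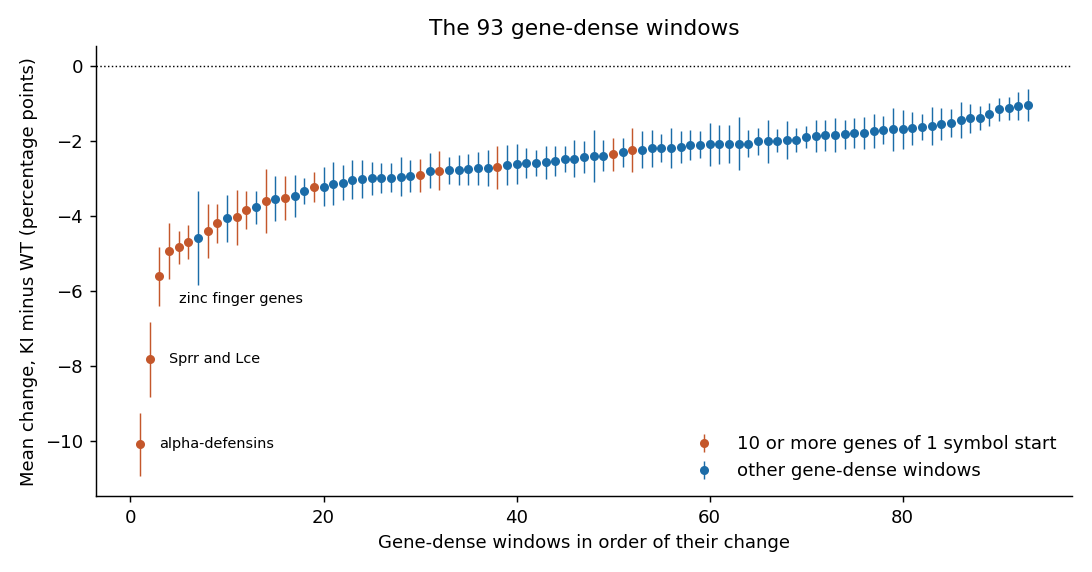
Change in percentage points (KI minus WT) of the 93 gene-dense windows in order, with 95% counting intervals. Windows with 10 or more genes of 1 symbol start are orange and the others blue. The α-defensin window stands lowest at -10.1 and no interval reaches 0.

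The family windows were then counted by gene symbol, a division made after the values were seen and so given without a test. In 18 windows 10 or more genes shared the letters their symbols start with, among them the keratins, the histones of chromosome 13, the kallikreins (Klk), the type I interferons (Ifn), the Ms4a genes, the Wfdc protease inhibitors, the carboxylesterases (Ces), the lipocalins (Lcn) and the pregnancy-specific glycoproteins (Psg). The cytosines of these windows changed by -3.84 percentage points, or 7.11% of the WT level, and those of the other 75 windows by -2.20, or 3.89%. Among cytosines with under 5 copies the changes were -3.32 in family windows and -2.02 in the others, and with 5 or more copies they were -5.51 and -3.56. The share of repeated cytosines and the change had a Pearson correlation of -0.77 and a Spearman correlation of -0.47 over the 93 windows, given as a description. Family windows held more repeated sequence, with a median of 29.9% of cytosines against 11.3%, and its part in their change was not tested.

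Gene bodies were tested on reads summed over at least 20 cytosines, by Fisher's exact test and by a Cochran-Mantel-Haenszel test with the cytosine as stratum, each adjusted over all 8657 autosomal bodies, and called where both passed in 1 direction. Of the 1407 bodies with their 5′ end in a gene-dense window 484 fell (34.4%) and 19 rose (1.35%). Over all autosomes 46.4% fell and 0.785% rose. The median body in gene-dense windows had 65.6% in KI and 67.9% in WT, and the median change was -1.67 percentage points, against -2.34 in the other bodies. Overlapping genes share cytosines and reads, so that neighbouring bodies are not independent, and Psmb9 and Ly6g6c each stand under 2 gene identifiers.

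Bodies called lower by 10 percentage points or more were 24 of 1407 in gene-dense windows and 119 of 7250 among the other autosomal bodies. The rule for named bodies also asks for 80% of cytosines in 1 direction and takes at most 10 falls. These 10 are given here in order of size. Krt86, a type II hair keratin gene (chr15:101303909-101310414), had 33.7% in KI and 52.3% in WT over 71 cytosines, a change of -18.7 ± 1.49 percentage points (counting error, Fisher's exact adjusted p = 4.89e-70). Gsdma2, of the gasdermin family of pore-forming proteins, had 43.8% in KI and 60.5% in WT. Kprp, for a proline-rich protein of keratinocytes, had 60.02% in KI and 74.2% in WT. Ms4a12, of a family of membrane-spanning proteins, had 69.2% in KI and 81.5% in WT. Fcho1, which acts at the start of clathrin-coated pits, had 23.9% in KI and 35.6% in WT.

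Krt75, a hair follicle keratin gene, had 51.8% in KI and 63.1% in WT. Ubtf, the RNA polymerase I factor of ribosomal DNA, had 61.0% in KI and 72.1% in WT over 20 cytosines. Ceacam20, an adhesion molecule gene, had 56.1% in KI and 66.8% in WT, and Theg, expressed in testis, 54.2% in KI and 64.7% in WT. Cd160, for a receptor of natural killer and T cells, had 60.6% in KI and 70.6% in WT, a change of -10.1 percentage points as a mean over cytosines and of -3.32 over summed reads, and its body overlaps Pdzk1.

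None of the bodies that rose did so by 10 percentage points. The 19 that rose included Adamtsl5, with 15.7% in KI and 7.39% in WT, Axl, a receptor tyrosine kinase gene, with 17.3% in KI and 11.2% in WT, Gltpd2, with 16.6% in KI and 10.7% in WT, and Wnt10b, with 10.9% in KI and 7.14% in WT. Nfix, a nuclear factor I gene with 473 cytosines, had 54.4% in KI and 52.9% in WT. These were picked for their size or their number of cytosines after the values were seen.

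The 10 bodies above 70% in WT with the most summed reads, which favours bodies with many cytosines, changed by -4.85 to 0.476 percentage points. Bsn, for the presynaptic scaffold bassoon, had the largest, with 68.9% in KI and 73.7% in WT over 503 cytosines (change -4.85 ± 0.391). Plec, for the cytolinker plectin, had 83.7% in KI and 83.2% in WT over 501 cytosines and was not called. Tet3, for an enzyme that oxidises 5-methylcytosine, had 74.2% in KI and 74.8% in WT, and Mll2, for an H3K4 methyltransferase, 72.9% in KI and 73.8% in WT, neither of them called. The other 6 (Sipa1l3, Pcx, Triobp, Sbk1, Prrc2b and Cul9) were called lower, with changes of -2.64 to -0.284 as means over cytosines and of -3.36 to -1.59 over the summed reads that the calls rest on. Sbk1, the smallest, had -0.284 over cytosines and -3.30 over reads. With cytosines of 10 or more reads only, the means over cytosines were -0.63 for Triobp, -0.85 for Sbk1 and -0.99 for Prrc2b, and with both strands summed that of Cul9 was -1.74. Pcx lost its call without CpGs in CCGG sites and Prrc2b with both strands summed.

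**Figure D5:**
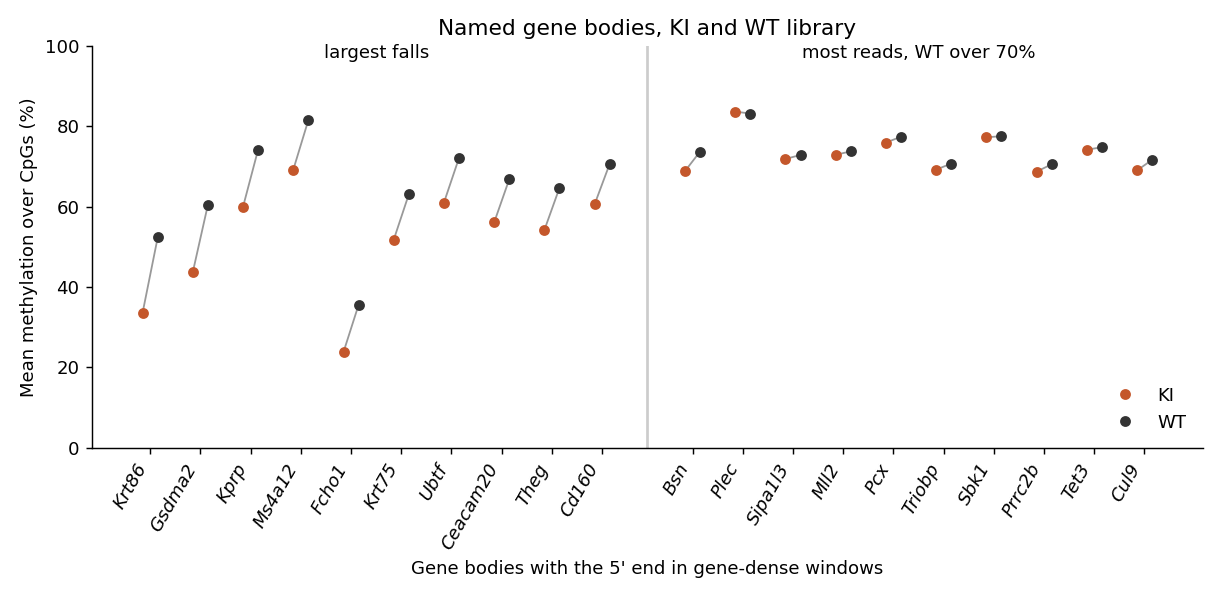
Mean methylation in percent over the cytosines of 20 named gene bodies of the gene-dense windows, KI in orange and WT in black, joined by a line. The 10 falls of the rule for named bodies are on the left, with Krt86 at 33.7% in KI and 52.3% in WT, and the 10 bodies above 70% in WT with the most summed reads are on the right, where the points lie furthest apart in Bsn, at 68.9% in KI and 73.7% in WT.

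Gene groups were taken by the start of the symbol and are described beside the 46.4% of all bodies that fell. Of 77 keratin and keratin-associated genes 12 had a measured body, 8 fell and none rose, with a median change of -4.76 percentage points. Besides Krt86 and Krt75 these were Krt82, Krt80, Krt27, Krt79, Krt18 and Krt83. Krt8, which with Krt18 forms the filaments of simple epithelia and hepatocytes, had 18.8% in KI and 20.4% in WT and was not called, while Krt18 had 51.02% in KI and 54.7% in WT. Of 123 C2H2 zinc finger genes, many of them repressors of repeated DNA, 44 had a measured body, 7 fell and none rose, with a median of -1.57. The largest was Zfp335, with 39.8% in KI and 49.1% in WT.

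Of 64 solute carrier genes 32 were measured and 13 fell, with a median of -1.97. Slc4a1, the red cell anion exchanger gene, had 42.7% in KI and 54.8% in WT, and Slc5a4a, of the glucose transporter family, 64.3% in KI and 72.3% in WT. Of 10 potassium channel genes 8 were measured and 4 fell, with a median of -2.91. All 3 measured collagen genes fell, with a median of -5.81, and of 4 measured MHC genes H2-Eb1 and H2-DMa, class II genes of antigen presentation, fell. Cyp2s1, a cytochrome P450 gene, fell to 63.0% in KI, against 70.5% in WT, and Cyp27a1, of bile acid synthesis, had 66.1% in KI and 68.8% in WT and was not called. Of 6 bodies whose symbols start like ribosomal protein genes 1 fell, Rpl7l1, and these 6 include the S6 kinase genes Rps6ka1, Rps6ka4 and Rps6kb2. Of 3 proteasome bodies, which count Psmb9 under 2 gene identifiers with the same cytosines, 1 fell, of 2 histone bodies 1, of 2 RNA polymerase subunit bodies 0. No imprinted or clustered protocadherin gene of the lists had its 5′ end in these windows.

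Promoters, taken as 1 kb on each side of a gene's 5′ end and so outside the members, mostly had little methylation to lose. Of 2581 measured in gene-dense windows 146 fell (5.66%) and 47 rose (1.82%), and over all autosomes 6.4% fell and 1.15% rose. The median promoter had 1.15% methylation in KI and 1.23% in WT. The 141 promoters above 70% in WT had a median change of -2.68 percentage points. In the 606 gene bodies of these windows above 70% it was -1.47. Among the other autosomal promoters and bodies above 70% these medians were -3.60 and -2.03. The same WT reads set the 70% limit and measured the change here. Keratin promoters stood at higher levels, with a median of 60.7% in KI and 69.0% in WT, and 13 of 33 fell. Of the 38 measured histone promoters none fell and 1 rose, with medians of 0.037% in KI and 0.099% in WT. Of the zinc finger promoters 3 of 83 fell and 2 rose. Cd3e, a T cell marker, had 48.5% in KI and 65.3% in WT over 9 cytosines. The other 2 measured markers of blood and Kupffer cells, outside the gene-dense windows, were not called, with 51.6% in KI and 49.9% in WT at Vav1 and 65.2% in KI and 66.7% in WT at Emr1.

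Stretches of 1 kb with at least 5 cytosines were searched for losses of 10 percentage points shared by 80% of their cytosines. Of 9378 stretches in gene-dense windows 290 fell (3.09%) and 13 rose (0.139%), and over all autosomes 6.62% fell and 0.113% rose. Of the 3896 stretches above 70% in WT none was below 20% in KI, against 2 of 46402 in the other windows. More than 25 percentage points lower were 10 of the 3896 (0.257%), against 0.291% of those in the other windows. With cytosines of at least 20 reads only, 287 of 6825 stretches fell (4.21%), against 8.65% in the other windows, and 14 rose (0.205%), against 0.0993% in the other windows. Gains of this second search included a stretch over an untranslated region of Rela (chr19:5641001-5642000), the p65 subunit gene of NF-κB, with 84.0% in KI and 65.7% in WT, and one over an untranslated region of Rasip1 (chr7:52894001-52895000), a Ras-interacting protein gene of endothelium, with 40.1% in KI and 18.9% in WT.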

How the data were processed

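RRBS libraries of pooled liver DNA (1 KI, 1 WT) were used. The authors mapped uniquely aligned reads to mm9 with Bismark and deposited, for each CpG cytosine, its coverage as a count of reads and the percent of reads methylated and unmethylated. Methylated reads were recovered as coverage times percent, rounded to whole reads. Genes and starts were from GENCODE for the same build (the reference sequence has a CpG at 100% of shared positions). A cytosine was used where each library covered it 5 times or more, as in the study. Means weight each cytosine equally, and 95% intervals come from binomial counting. Tests were Fisher's exact test (two-sided) and the Cochran-Mantel-Haenszel test, with Benjamini-Hochberg adjustment over all autosomal regions or all shared cytosines, in Python (numpy, scipy). They were tested on simulated data in which each cytosine was drawn independently. Reads that span several CpGs and PCR copies were not simulated, so the simulation cannot show how the tests behave with them. Repeats were to be read from marked bases of the genome, but the sequence used marks none, so copies of 16-base words were counted instead.

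Named windows were the 5 with the most genes, the 5 largest and the 5 smallest falls with at least 200 member cytosines. Named bodies were up to 10 falls and 10 rises past both tests, 10 percentage points and 80% of cytosines, and the 10 above 70% in WT with the most summed reads. Named stretches followed the same limits, 5 each way. Members and lists were chosen with earlier results of these data known. Alternatives tried were other coverage minimums, gene counts, distances, window positions, weights and tests.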

Additional observations from a re-analysis of the deposited data

How the results depend on the processing

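No paired analysis was possible because each genotype has 1 pooled library. The mean change of the members, the gap to the other windows and the gap at like WT level kept their direction under every alternative run. They lay between -2.82 (over 5 kb from starts) and -1.47 (all shared cytosines of the windows), between 1.10 (under 5 copies) and 2.41 (without CCGG sites), and between 0.727 (weighted by level, copies, feature and CpG density) and 1.98 (each window with the same weight) percentage points. With a difference above 10 instead of 25 percentage points, 2593 of the 146603 members were called lower and 246 of them higher. Of all shared cytosines 2.66% were called lower and 0.102% higher at that limit. Called counts of cytosines and gene bodies stayed within 1.5 times elsewhere. Pcx was no longer called without CCGG sites, nor Prrc2b with both strands summed, and the cause was not tested. The 11 named stretches were 5 losses, 5 gains and a kept stretch of Sbk1 (chr7:133436001-133437000, 89.7% in KI and 89.8% in WT). That stretch overlaps an untranslated region, and the Plec sequence was printed in its place. Reading only CpGs with 10 or more reads left enough cytosines in 2 of the 11, one of them that of Hdgfrp2. The others of the 11 have no value at that depth. Chosen after seeing the data were the weightings by level with copies, feature, distance or CpG density, the limit on copies, the removal of the family windows and of the 12 windows with cytosines read in 1 library only, the reads as weights and the 20-read stretches.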

Other observations

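Some cytosines read deeply in 1 library were missing from the other, which the comparisons above do not use. In the gene-dense windows 34 of 201481 cytosines covered 20 times or more in KI were not covered in WT, and 144 of 196834 covered 20 times or more in WT were not covered in KI. They fell in 12 of the 93 windows. The window that holds Uhrf1 (chr17:56000001-57000000) had 49 cytosines read in WT and absent from KI, the window on chromosome 9 from 107000001 had 33, and the rest of the WT-only ones lay mostly on chromosome 8. The Uhrf1 window also holds the Hdgfrp2 stretch. Its mean was 51.1% in KI and 52.7% in WT, a change of -1.52 percentage points. Without the 12 windows the mean change of the members was -2.45, and without chromosome 17 it was -2.39. Whether DNA of the 129/SV embryonic stem cells remains in these windows was not tested.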
